A study of Mus musculus with 15 samples.

Results

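The comparison set cortex of mice that had received intermittent theta-burst stimulation (iTBS) against cortex of mice that had received continuous theta-burst stimulation (cTBS), across every gene expressed above a low-count filter. Both groups were wild-type C57BL/6J mice given a single session of repetitive transcranial magnetic stimulation, with 5 animals each, and both were taken 3 hours after it. A sham-stimulated group of 5 mice of the same strain was not part of the contrast, but it entered the model that estimated the spread between animals, and its levels are given where they place the other groups. The labels give neither the age nor the sex of the animals, nor how they were restrained or anaesthetised. Of 45315 genes with any count in the 15 libraries, 22998 passed the filter and were compared, and all 10 stimulated libraries were used. Titles of the samples say somatosensory cortex, while the design text speaks of sensorimotor cortex. The marker genes were those of cortex. Slc17a7, the vesicular glutamate transporter of cortical excitatory neurons, was at 994 to 1300 CPM (counts scaled to library size) in iTBS libraries and 1100 to 1400 CPM in cTBS libraries. Neurod6, a transcription factor of cortical excitatory neurons, was at 52.8 to 79.2 CPM in iTBS libraries and 54.5 to 70.7 CPM in cTBS libraries. Transcripts of neighbouring tissue were present too. Drd1, the dopamine receptor of striatal projection neurons, was at 24.6 to 72.2 CPM in iTBS libraries and 24.6 to 73.2 CPM in cTBS libraries.

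In transcranial magnetic stimulation a rapidly changing magnetic field induces current in the cortex through the skull. In both protocols the pulses come in short high-frequency bursts repeated at a theta rhythm. The bursts are broken into trains with pauses in iTBS and run without a pause in cTBS. In human motor cortex iTBS is known for raising and cTBS for lowering excitability after stimulation, which is the question behind setting the protocols against each other. In neurons, strong activity switches on immediate early genes such as Fos and Arc within minutes, and those in turn drive later effector genes that change synapses, so that a 3-hour sample falls late in this sequence.

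Libraries differed in ways that reach every result below. Total counts averaged 29745055 ± 8461783 in iTBS libraries and 40198193 ± 3814624 in cTBS libraries (SD, n = 5 each). This difference passed a two-sided exact permutation test (p = 0.0238, 0.0476 after adjustment over 2 tests of library measures, with 0.00794 the smallest p that 252 assignments allow). The shallowest library was iTBS 3, with 15385070 counts. The number of genes with any count was 34096 ± 1281 in iTBS libraries and 33457 ± 918.7 in cTBS libraries (exact permutation p = 0.373, adjusted p = 0.373). Thinned to the smallest total, so that depth was equal, iTBS libraries held 2073 more genes on average than cTBS libraries (exact permutation p = 0.0317). The level of 11 nuclear-retained noncoding RNAs, described below, was the other broad difference, and it moved with most gene groups. For that reason medians or counts of the gene groups are also given from a fit with this level as a covariate. The covariate differs between the groups compared, so the protocol and nuclear RNA content cannot be told apart in these libraries. The nuclear RNA level also went with total counts, sham libraries included. It was lowest in cTBS 4 (6.06), cTBS 1 (6.41) and sham 4 (6.5), which had the largest totals, 43770223, 43082674 and 47807723 counts. In sham 3, with 18484169 counts, it was 8.19, and in iTBS 3 it was 7.87. Yet iTBS 2 and iTBS 4, both at 8.06, had 32165734 and 31236500 counts. The part of depth in this level was not tested. In bulk tissue, fewer cells of a type and less RNA per cell cannot be told apart either.

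**Figure D1:**
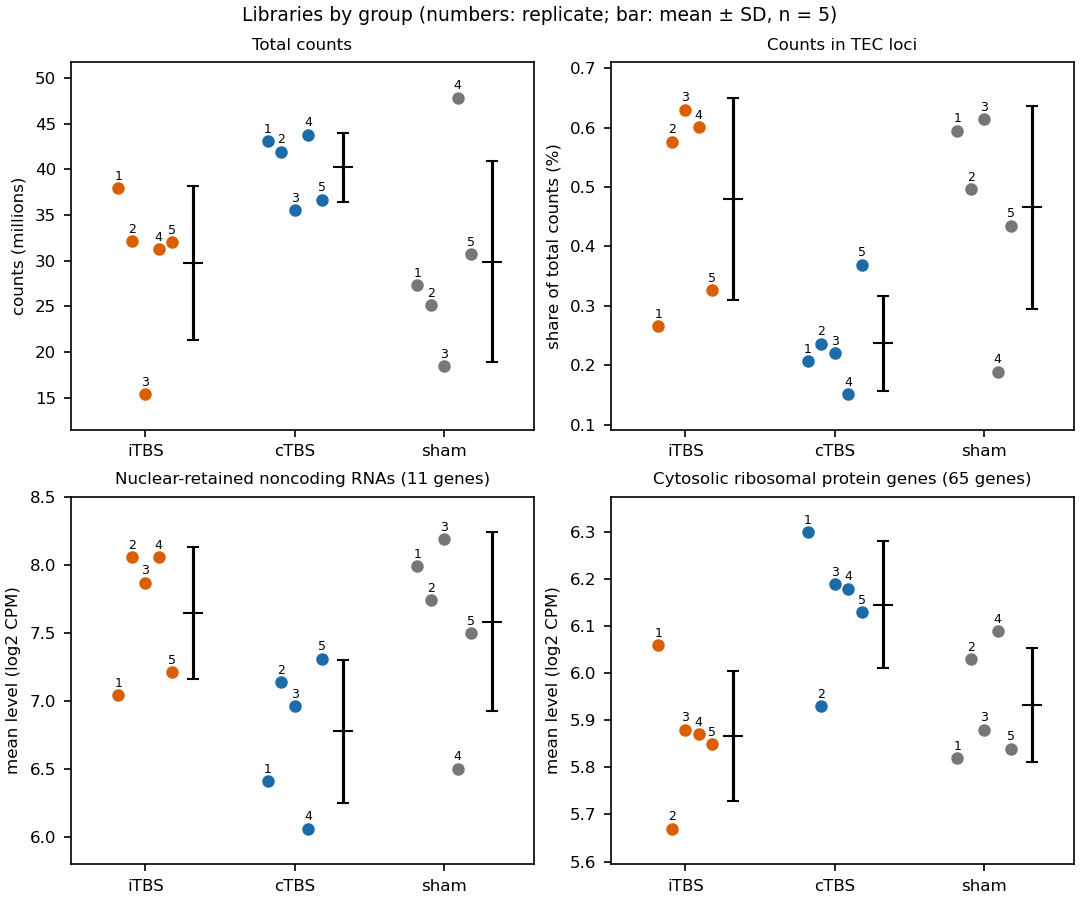
Each point is a library, numbered by replicate; the vertical axes give total counts, the share of counts in TEC loci in percent, and the mean log2 CPM of 11 nuclear-retained noncoding RNAs and of 65 cytosolic ribosomal protein genes, with black bars for mean ± SD of 5 libraries. The nuclear RNA level was 7.65 ± 0.49 in iTBS libraries and 6.77 ± 0.52 in cTBS libraries, and the ribosomal protein level was 5.87 ± 0.14 in iTBS libraries and 6.14 ± 0.14 in cTBS libraries.

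No gene passed an adjusted p of 0.05 with edgeR's quasi-likelihood test (0% of 22998 genes), and the smallest adjusted p was 0.0838. At an unadjusted p under 0.05 there were 7047 genes, 30.6% of those tested, where 1149.9 would be expected on average if no gene differed. Of the 7047 genes, 4600 were higher in iTBS cortex (20% of genes tested) and 2447 were lower (10.6%). Many genes varied together across these libraries, so by chance alone such a count can lie far from its average. Whether 7047 exceeds what chance could give was not tested, and the excess is not a number of genes that differ. At an adjusted p under 0.10 there were 3607 genes (15.7%), 2458 higher and 1149 lower. The 5 iTBS libraries lay wholly above the 5 cTBS libraries in 510 genes (2.22%) and wholly below them in 391 genes (1.70%), and among protein-coding genes these shares were 1.34% and 2.37%. Of all genes, 53.9% had a log2 fold change above 0. The share of higher genes among those with p under 0.05 was 65.3% with the scaling used, 78.2% with upper-quartile scaling and 51.5% when protein-coding genes alone were scaled and tested. Counts of members in the sections below use the unadjusted p and are descriptions to be read against these background shares. Other tools made calls: DESeq2's Wald test called 2618 genes (1673 higher and 945 lower) and limma-voom with quality weights called 6853 (4508 higher and 2345 lower). With edgeR, leaving out iTBS 1 gave 4474 calls, leaving out cTBS 5 gave 3380 and leaving out sham 4 gave 3637. Adjusted for the nuclear RNA level, edgeR again called 0 genes, and the number at unadjusted p under 0.05 was 1780, or 7.74% of genes.

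The clearest split was by kind of transcript: noncoding loci were higher in iTBS cortex, while protein-coding genes were slightly lower with the scaling used. TEC loci are annotated places where transcription has been seen but not verified by experiment. Of 1791 tested, 96.6% were higher in iTBS cortex, with a median log2 fold change of 1.24, and 1287 had p under 0.05 in that direction against 3 in the other. Sense-intronic transcripts, which lie within introns of other genes, were higher in 201 of 203 cases with a median of 1.27. Antisense transcripts were higher in 1158 of 1255 cases with a median of 0.91. Long intergenic noncoding RNAs were more mixed, with 665 of 882 higher and a median of 0.34. Among 15247 protein-coding genes 40.7% were higher, with a median of -0.04, and here 9.14% had p under 0.05 and were higher and 15.1% had p under 0.05 and were lower. That lower direction depended on the scaling. The protein-coding median was 0.004 with upper-quartile scaling. When protein-coding genes alone were scaled and tested it was -0.007, with 1892 higher and 1779 lower at p under 0.05. TEC loci took 0.266% to 0.63% of all counts in iTBS libraries and 0.151% to 0.369% in cTBS libraries. In the fit that held nuclear RNA constant, the medians were 0.11 for TEC loci, 0.11 for sense-intronic and 0.07 for antisense transcripts, and 75 TEC loci were higher and 14 lower at p under 0.05. Because the strand setting of the counting is not given in the sources used here, reads of sense-intronic and antisense loci cannot be told apart from unspliced reads of the genes they overlap.

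**Figure D2:**
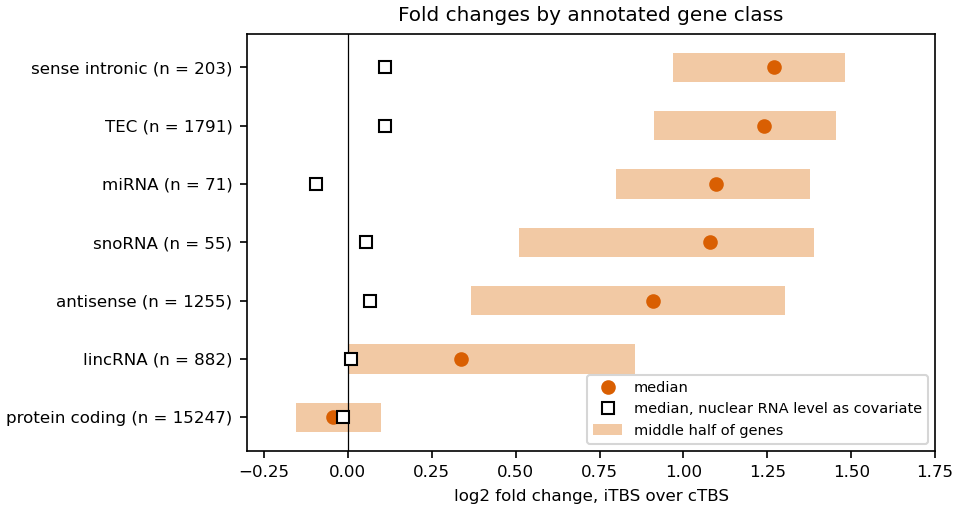
The horizontal axis is the log2 fold change, iTBS over cTBS; for each annotated gene class the bar runs from the lower to the upper quartile, the filled circle is the median and the open square the median under the nuclear RNA covariate. Medians lie between 0.91 and 1.27 for TEC, sense-intronic, antisense, miRNA and snoRNA loci and at -0.04 for protein-coding genes.

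Loci of small RNAs showed the same direction. Small nucleolar RNAs guide the chemical modification of ribosomal RNA, and 52 of 55 tested loci were higher in iTBS cortex, with a median log2 fold change of 1.08 and 24 at p under 0.05. MicroRNAs silence messenger RNAs by pairing through a seed, and 66 of 71 tested loci were higher, with a median of 1.10 and 33 at p under 0.05. Libraries of total RNA do not select for mature microRNAs, so these counts describe reads at the loci and not levels of the mature forms. Mature RNAs are shown for 4 of the 5 loci with the smallest p because they identify the loci, and Mir1942 is named only. Sequences and positions are those of RefSeq on the build GRCm38.p6, printed 5′ to 3′ with the seed (bases 2 to 8) in capitals, and 65 of the 71 loci had an entry.
mmu-miR-99b-5p: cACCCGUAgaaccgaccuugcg
mmu-miR-99b-3p: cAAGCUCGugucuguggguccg
mmu-miR-28b: aGGAGCUCacaaucuauuuag
mmu-miR-665-5p: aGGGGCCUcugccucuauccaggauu
mmu-miR-665-3p: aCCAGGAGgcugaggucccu
mmu-miR-378b: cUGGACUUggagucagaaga
The seeds all differ, so these loci share no seed family. The mature sequences lie at chr17:17830194-17830215 and chr17:17830232-17830253 for Mir99b, chr8:73016523-73016543 for Mir28b, chr12:109586331-109586356 and chr12:109586368-109586387 for Mir665, and chr11:88352839-88352858 for Mir378b, all on the plus strand. Mir99b was at 0.298, 0.479, 0.506, 0.721 and 0.223 CPM in iTBS libraries and at 0.121, 0.118, 0.0561, 0.0241 and 0.136 CPM in cTBS libraries. Every iTBS library was above every cTBS library, and the log2 fold change was 2.23 ± 0.47 (SE; edgeR adjusted p = 0.0838). Mir28b was at 0.353, 0.569, 0.506, 0.376 and 0.287 CPM in iTBS libraries and at 0.0485, 0.0948, 0.168, 0.0241 and 0.217 CPM in cTBS libraries, again with no overlap and a log2 fold change of 1.90 ± 0.51. Mir665 lies in the imprinted Meg3 and Rian region of chromosome 12. It was at 0.407, 1.68, 0.759, 1.29 and 0.638 CPM in iTBS libraries and at 0.315, 0.308, 0.196, 0.0963 and 0.434 CPM in cTBS libraries, where iTBS 1 fell within the cTBS range. Given the nuclear RNA covariate, the median over miRNA loci was -0.09, with 2 higher and 5 lower at p under 0.05.

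The long noncoding RNAs that stay in the nucleus were higher in iTBS cortex in 11 of 11 cases, with 9 at p under 0.05 and a median log2 fold change of 0.98, against a median of 0.03 over all genes. Malat1, the abundant RNA of nuclear speckles, was at 3030, 9140, 6190, 8230 and 3540 CPM in iTBS libraries and at 1590, 3630, 2920, 1040 and 3800 CPM in cTBS libraries. The groups overlapped, with iTBS 1 and iTBS 5 within the cTBS range and iTBS 2, 3 and 4 above it, and the log2 fold change was 1.22 ± 0.44 (edgeR adjusted p = 0.0943). Kcnq1ot1, the antisense RNA that silences an imprinted cluster, was at 82.2, 206, 214, 224 and 105 CPM in iTBS libraries and at 56.8, 60.4, 50.8, 27.1 and 119 CPM in cTBS libraries. Its log2 fold change was 1.40 ± 0.42, and the same 3 iTBS libraries were highest. Neat1, the scaffold of paraspeckles, was at 21.1, 42.6, 37.4, 39.3 and 21.6 CPM in iTBS libraries and at 14.9, 13.9, 17.2, 9.79 and 26.2 CPM in cTBS libraries (log2 fold change 0.98 ± 0.32). Snhg14, the long host transcript of the Prader-Willi region, differed less (0.75 ± 0.26), and Meg3, an imprinted RNA abundant in neurons, more (1.17 ± 0.43). Pantr1 was at 26.2 CPM in iTBS and 26.0 CPM in cTBS cortex, a log2 fold change of 0.01 ± 0.08. Sham libraries, with a level of 7.58 ± 0.66, lay near the iTBS libraries at 7.65 ± 0.49 and not near the cTBS libraries at 6.77 ± 0.52, apart from sham 4 at 6.5.

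Splicing factor genes went partly with these RNAs. Of 42 tested, 27 were higher and 15 lower, with a median of 0.06, and 9 higher and 3 lower had p under 0.05. Rbm25, a regulator of splice site choice, was at 74.7, 116, 101, 111 and 85 CPM in iTBS libraries and at 63, 76, 63.9, 66.9 and 85.9 CPM in cTBS libraries (log2 fold change 0.46 ± 0.14). Srsf11, an SR-family protein, had a log2 fold change of 0.43 ± 0.16, and Clk4, a kinase of SR proteins, 0.55 ± 0.22. Hnrnpc, a packaging protein of nascent transcripts, was lower (-0.19 ± 0.07). Under the nuclear RNA covariate, the median of the list was -0.03 and 2 members were higher and 4 lower at p under 0.05.

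Among protein-coding genes the direction also went with the length of the exons. Of 1648 genes with 1000 to 2000 bases of merged exon, 6.61% were higher and 25.2% lower at p under 0.05, and their median log2 fold change was -0.14. Of 4807 genes with over 6000 bases, 14.6% were higher and 6.03% lower, with a median of 0.01. The part of this relation in the gene groups below, many of which hold short genes, was not tested.

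**Figure D3:**
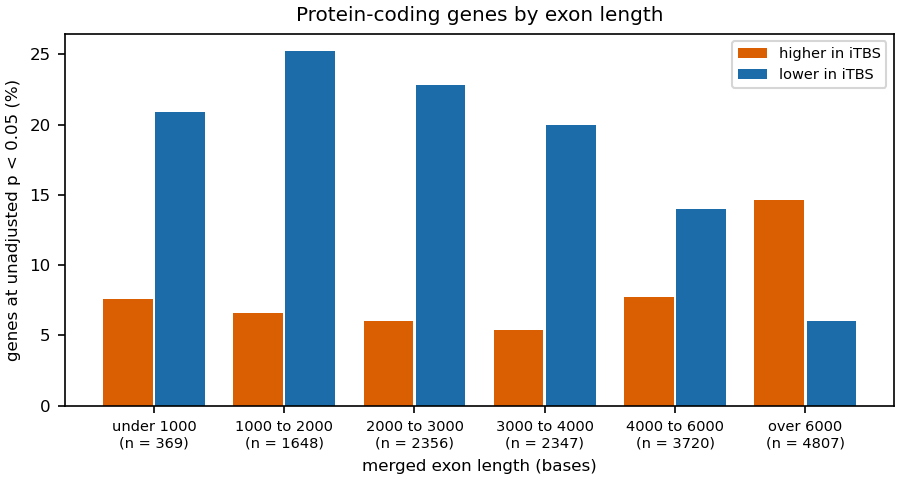
Protein-coding genes are grouped along the horizontal axis by merged exon length in bases, and the bars give the percentage of each bin at unadjusted p under 0.05, higher or lower in iTBS than in cTBS cortex. Lower genes made up 25.2% of the bin from 1000 to 2000 bases and 6.03% of the bin over 6000 bases.

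The genes with the smallest p were mostly protein-coding and differed by modest amounts. Among the 20 with the smallest p at a mean of at least 1 CPM, 8 were higher and 12 lower in iTBS cortex, and all had an edgeR adjusted p of 0.0838. All 20 had an adjusted p under 0.05 with DESeq2, with limma-voom and with edgeR when iTBS 1, cTBS 5 or sham 4 was left out. They were picked by p in these same counts, so those calls are not separate evidence. Osbpl3, an oxysterol-binding protein of membrane contact sites, was at 51, 55.4, 75.2, 62.2 and 59.8 CPM in iTBS libraries and at 37.7, 43.2, 42.1, 44 and 45.7 CPM in cTBS libraries. Every iTBS library was above every cTBS library, with a log2 fold change of 0.51 ± 0.09. Sham libraries, at 55.3 to 61.5 CPM, fell within the iTBS range. Krt20, a keratin, was low in level, at 4.96, 6.95, 7.65, 5.93 and 5.94 CPM in iTBS libraries and at 3.3, 4.31, 3.59, 3.68 and 3.77 CPM in cTBS libraries (log2 fold change 0.75 ± 0.13). Adgrl2, the adhesion receptor latrophilin-2 of synapses, had the tightest groups. It was at 171, 164, 161, 166 and 163 CPM in iTBS libraries and at 140, 135, 140, 147 and 141 CPM in cTBS libraries, a log2 fold change of 0.23 ± 0.04. Sham libraries were at 147 to 158 CPM, between the groups but for the highest cTBS library, which equalled the lowest sham value. Piezo1, a mechanically gated cation channel, was at 6.1, 7.79, 8.29, 8.25 and 8.81 CPM in iTBS libraries and at 5.09, 5.88, 4.96, 5.78 and 5.59 CPM in cTBS libraries (0.52 ± 0.11). After adjustment for nuclear RNA, the log2 fold changes were 0.42 for Osbpl3, 0.52 for Krt20, 0.25 for Adgrl2 and 0.42 for Piezo1, and all 20 genes kept their direction. Under that covariate the edgeR adjusted p of the 20 genes was 0.483 to 0.555.

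**Figure D4:**
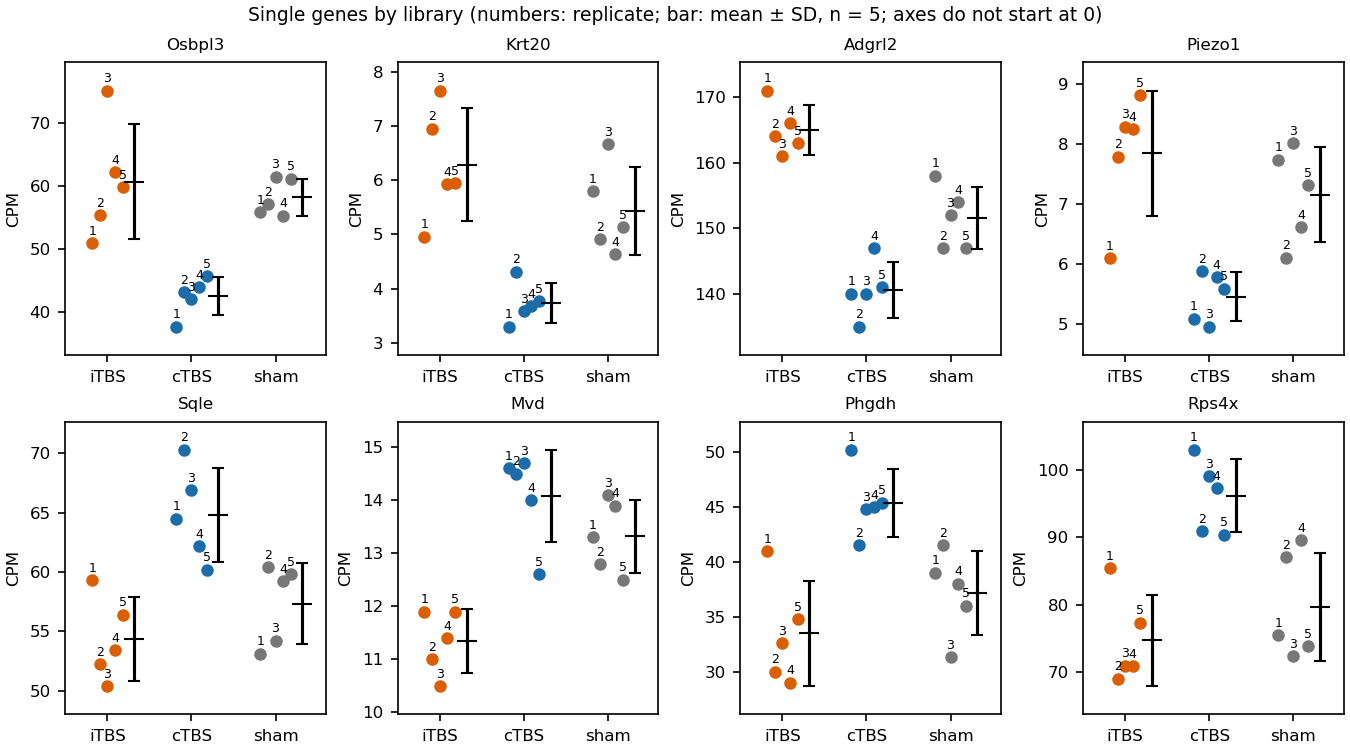
Each panel gives 1 gene, with a point per library in CPM, numbered by replicate, and black bars for mean ± SD of 5 libraries; axes do not start at 0. In Osbpl3, Krt20, Adgrl2 and Piezo1 the 5 iTBS libraries lie above the 5 cTBS libraries, and in Sqle, Mvd, Phgdh and Rps4x they lie below them.

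Other genes of smallest p were lower in iTBS cortex or, for a few, higher. Phgdh, the first enzyme of serine synthesis and in brain an enzyme of astrocytes, was at 41, 30, 32.6, 29 and 34.8 CPM in iTBS libraries and at 50.2, 41.5, 44.8, 45 and 45.4 CPM in cTBS libraries. The groups did not overlap, although iTBS 1 and cTBS 2 were close, and the log2 fold change was -0.44 ± 0.09. Txndc5, a protein disulfide isomerase of the endoplasmic reticulum, had a log2 fold change of -0.34 ± 0.07, and Ctsz, a lysosomal protease, -0.31 ± 0.06. Ufc1, the conjugating enzyme of the ubiquitin-like modifier UFM1, was at -0.32 ± 0.07, Chmp2a, a subunit of the membrane-cutting ESCRT complex, at -0.27 ± 0.06, and H3f3b, a gene of the replacement histone H3.3, at -0.28 ± 0.06. In Ctsz the iTBS 1 library stood above the other iTBS libraries, at 19.6 CPM against 18.2 to 18.6 CPM. H2-T24, a class I histocompatibility gene, was higher (0.35 ± 0.07), but it belongs to a family of similar genes whose reads the counting could split. The noncoding BX649560.1 (0.38 ± 0.07) and the TEC locus Gm43684 (1.49 ± 0.30) were higher as well.

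Genes of the cytosolic ribosome were lower in iTBS cortex almost throughout. Of 65 ribosomal protein genes tested, 63 were lower and 58 had p under 0.05 in that direction, against 10.6% of all genes and 15.1% of protein-coding genes. The median log2 fold change was -0.31 (median of all genes 0.03, of protein-coding genes -0.04). With upper-quartile scaling the ribosomal median was -0.26. Rps4x, a small-subunit protein, was at 85.4, 69, 70.9, 70.8 and 77.3 CPM in iTBS libraries and at 103, 90.9, 99.1, 97.3 and 90.4 CPM in cTBS libraries, with no overlap and a log2 fold change of -0.36 ± 0.07. Rpl6, a large-subunit protein, was at 136, 118, 121, 119 and 124 CPM in iTBS libraries and at 156, 152, 148, 158 and 143 CPM in cTBS libraries (-0.29 ± 0.07). Rpl10 had a log2 fold change of -0.38 ± 0.09. In 10 of the genes the iTBS libraries lay wholly below the cTBS libraries. DESeq2 called 45 of the 65 and limma-voom 56, while edgeR called none. Over all 22998 genes DESeq2 called 2618 and limma-voom 6853. Adjusted for the nuclear RNA level, the median was -0.16, and 61 of 65 were lower, 16 of them at p under 0.05. Ribosomal protein genes have many processed copies in the genome, so their counts depend on how the counting treated reads that match several places.

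Nuclear-encoded genes of the respiratory chain followed the same direction. Of 38 tested, 36 were lower in iTBS cortex and 31 had p under 0.05, with a median of -0.25 (-0.205 with upper-quartile scaling). Ndufs3, a core subunit of complex I, was at 48.1, 43.6, 44, 42.3 and 42 CPM in iTBS libraries and at 55.5, 54.2, 52.2, 51.8 and 45.9 CPM in cTBS libraries. The groups overlapped through iTBS 1 and cTBS 5, and the log2 fold change was -0.24 ± 0.06. Sdhb, of complex II, had a log2 fold change of -0.33 ± 0.08, and Atp5c1, of ATP synthase, -0.31 ± 0.08. The 13 genes encoded in mitochondrial DNA did not share this direction. Of these, 10 were higher and none had p under 0.05, with a median of 0.14, which was -0.03 without cTBS 4. In the fit that held nuclear RNA constant, the nuclear-encoded genes had a median of -0.10 and 5 lower at p under 0.05.

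Every subunit gene of the proteasome, the complex that degrades ubiquitin-tagged proteins, was lower in iTBS cortex: 28 of 28, with 25 at p under 0.05 and a median of -0.21 (-0.16 with upper-quartile scaling). Psmb3 was at 35.3, 28.6, 29.3, 28.3 and 29 CPM in iTBS libraries and at 40.3, 39.3, 38, 40.7 and 33.4 CPM in cTBS libraries. The library iTBS 1 stood apart from the other iTBS libraries and inside the cTBS range, and the log2 fold change was -0.35 ± 0.07. Psmb6, a catalytic subunit, was at 54.1, 42.4, 46.3, 48.1 and 50.6 CPM in iTBS libraries and at 62.8, 62.3, 62, 65.4 and 54.2 CPM in cTBS libraries, with iTBS 1 just below cTBS 5 (-0.34 ± 0.08). Given the nuclear RNA covariate, 26 of 28 were lower, 6 of them at p under 0.05, with a median of -0.09.

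Cholesterol synthesis genes were lower in iTBS cortex in 18 of 21 cases, with 13 at p under 0.05 and a median log2 fold change of -0.19 (-0.14 with upper-quartile scaling). The pathway builds sterol from acetyl-CoA through mevalonate and squalene, and its genes share control by the sterol-sensing factor SREBP2. Mvd, which makes isopentenyl diphosphate, was at 11.9, 11, 10.5, 11.4 and 11.9 CPM in iTBS libraries and at 14.6, 14.5, 14.7, 14 and 12.6 CPM in cTBS libraries. No iTBS library reached the lowest cTBS library, and the log2 fold change was -0.31 ± 0.07 (edgeR adjusted p = 0.0838). Sqle, squalene epoxidase, was at 59.3, 52.2, 50.4, 53.4 and 56.4 CPM in iTBS libraries and at 64.5, 70.3, 66.9, 62.2 and 60.2 CPM in cTBS libraries, where iTBS 1 and cTBS 5 nearly met (-0.25 ± 0.06). Insig1, the sterol sensor that retains SREBP2, was at -0.30 ± 0.09, and Fdft1, squalene synthase, at -0.28 ± 0.07. Hmgcs1, which makes HMG-CoA, was at -0.20 ± 0.07. Lss, lanosterol synthase, had equal levels of 29.7 CPM in both groups. Under the nuclear RNA covariate, the list had a median of -0.13 with 7 lower at p under 0.05. With the oligodendrocyte marker level as a covariate the list had a median of -0.19 and 13 lower at p under 0.05.

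Promoters of this pathway are shown because most of its members had lower values in iTBS cortex. The sequences are the 250 bases before the start of Hmgcs1 (chr13:119690101-119690350, plus strand) and of Mvd (chr8:122443423-122443672, minus strand), from RefSeq on GRCm38.p6. Capitals mark CCAAT, the box bound by the factor NF-Y, on either strand, where ATTGG is its reverse complement, and in Hmgcs1 also TCACNCCAC, a sterol regulatory element.
Hmgcs1 promoter: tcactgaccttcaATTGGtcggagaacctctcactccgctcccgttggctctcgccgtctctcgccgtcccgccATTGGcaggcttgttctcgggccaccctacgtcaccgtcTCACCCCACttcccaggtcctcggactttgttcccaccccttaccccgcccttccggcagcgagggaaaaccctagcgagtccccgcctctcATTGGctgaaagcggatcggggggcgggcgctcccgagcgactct
Mvd promoter: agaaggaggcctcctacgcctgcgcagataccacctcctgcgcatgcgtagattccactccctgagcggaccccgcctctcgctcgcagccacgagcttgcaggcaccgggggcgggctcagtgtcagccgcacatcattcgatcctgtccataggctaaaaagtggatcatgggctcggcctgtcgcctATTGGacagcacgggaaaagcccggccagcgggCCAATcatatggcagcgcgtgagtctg
Hmgcs1 held CCAAT 3 times and Mvd 2 times. Of 21 members of the list, 15 had a promoter among those searched, and all 15 held CCAAT on either strand. Among 32851 promoters of the same length 33.8% held it. A member was counted if any of its promoters matched, while the share is over single promoters, so the units differ. TCACNCCAC on either strand was found in 1 member, Hmgcs1, and in 1.05% of all promoters. These matches describe the sequences and do not show that a factor was bound.

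Glycolytic genes were lower in iTBS cortex in 19 of 23 cases, 13 of them at p under 0.05, with a median of -0.18 (-0.13 with upper-quartile scaling). Slc16a1, the monocarboxylate transporter that exports lactate, was at 27.4, 26.1, 25, 23.6 and 28.1 CPM in iTBS libraries and at 33.8, 30.9, 31.5, 31.6 and 32.7 CPM in cTBS libraries, without overlap (-0.30 ± 0.07). Gapdh, the glycolytic dehydrogenase often used as a reference gene, was at 1490 to 1900 CPM in iTBS libraries and 1920 to 2350 CPM in cTBS libraries (-0.29 ± 0.10). Ldhb, a lactate dehydrogenase subunit, was at -0.26 ± 0.08. Under the nuclear RNA covariate, the median was -0.04, with 2 higher and 2 lower at p under 0.05. Genes of actin and the spine cytoskeleton were lower in 19 of 24 cases, 8 at p under 0.05, with a median of -0.13 (-0.08 with upper-quartile scaling). Arpc5, of the branching Arp2/3 complex, was at -0.21 ± 0.07, Cdc42, a small GTPase of filopodia and spines, at -0.24 ± 0.08, and Actb at -0.22 ± 0.09. That list had a median of 0.03 under the nuclear RNA covariate, so its direction turned.

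**Figure D5:**
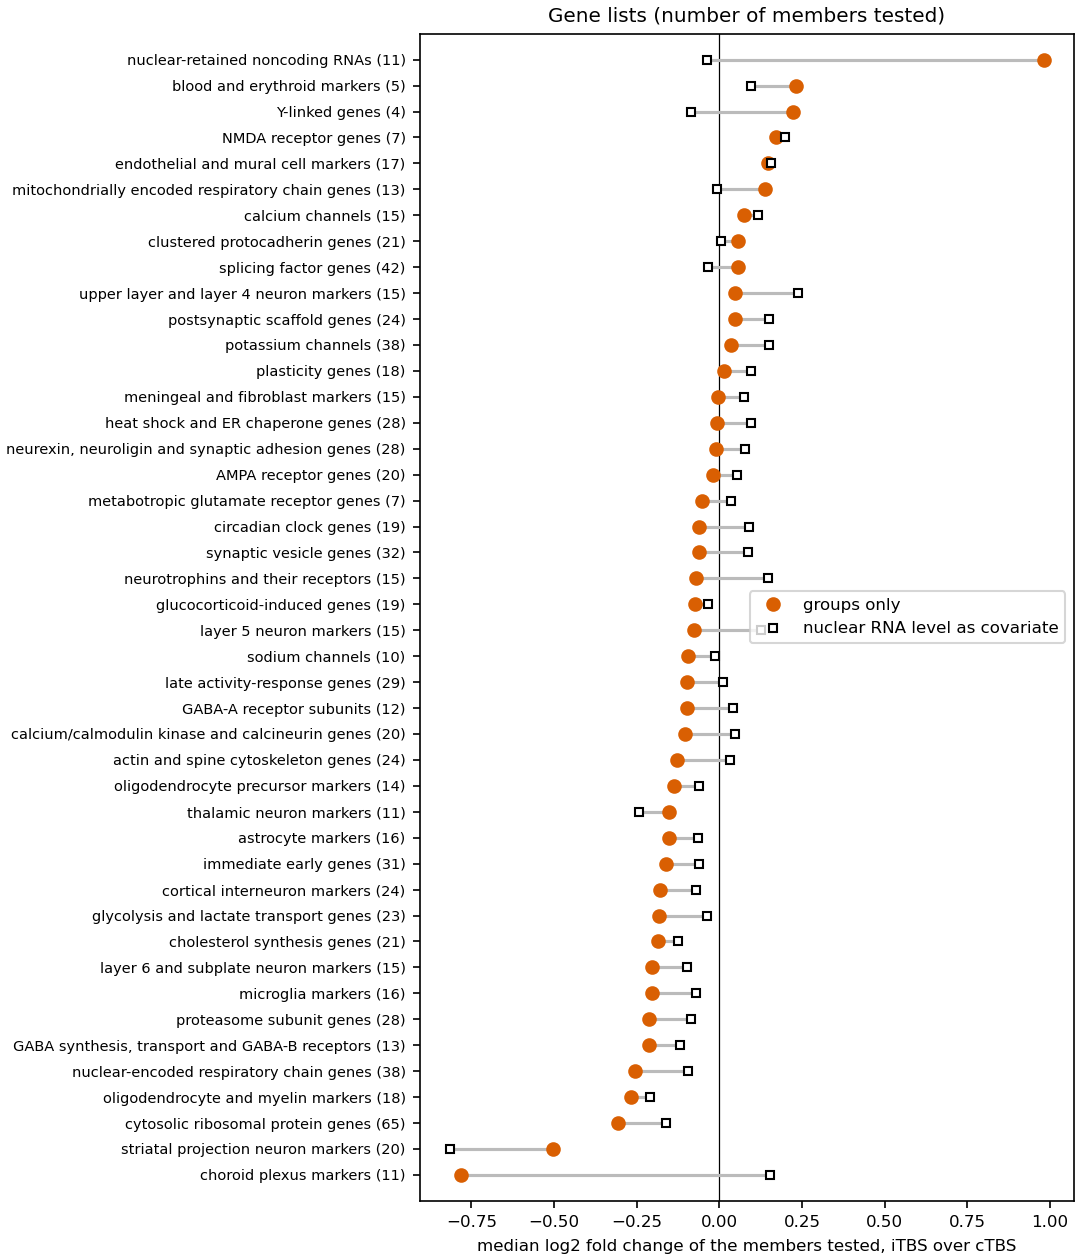
Each line is a gene list, with the number of members tested in brackets; the horizontal axis is the median log2 fold change of the members, iTBS over cTBS, from the fit with groups only (filled) and from the fit under the nuclear RNA covariate (open). Nuclear-retained RNAs had medians of 0.98 and -0.04 in these fits, ribosomal protein genes -0.31 and -0.16, cholesterol synthesis genes -0.19 and -0.13, and NMDA receptor genes 0.17 and 0.20. The covariate is the mean level of these nuclear-retained RNAs, so their own median near 0 under it follows from how it was made.

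Immediate early genes mostly had lower values in iTBS cortex, within the spread between animals for most of them. Of 31 tested, 22 were lower and 9 higher, with a median of -0.16. Of protein-coding genes 40.7% were higher. At p under 0.05 there were 2 lower and 1 higher members of the list. The shares lower and higher are 10.6% and 20% over all genes, and 15.1% and 9.14% over protein-coding genes. Fos, the transcription factor most used as an activity marker, was at 20.2, 31.8, 46.4, 35.4 and 50.7 CPM in iTBS libraries and at 40.1, 45.8, 59.3, 61.8 and 45 CPM in cTBS libraries. The groups overlapped, with iTBS 1 and iTBS 2 the lowest, and the log2 fold change was -0.46 ± 0.20 (edgeR adjusted p = 0.133). Gadd45b, a stress and demethylation factor, was at 6.29, 8.18, 7.53, 6.93 and 9.16 CPM in iTBS libraries and at 8.13, 9.03, 9.76, 11.3 and 8.98 CPM in cTBS libraries (-0.31 ± 0.12). Homer1, a postsynaptic scaffold gene with an activity-induced short form, was the higher of the 3 members at p under 0.05. It was at 526, 440, 514, 501 and 559 CPM in iTBS libraries and at 382, 393, 355, 494 and 467 CPM in cTBS libraries, a log2 fold change of 0.28 ± 0.11, with cTBS 4 and cTBS 5 within the iTBS range. Arc, which removes AMPA receptors from synapses, was at 189, 268, 394, 410 and 485 CPM in iTBS libraries and at 245, 341, 463, 564 and 470 CPM in cTBS libraries, and the log2 fold change of -0.25 ± 0.25 was about as large as its error. Egr1 was at 0.08 ± 0.20, Nr4a1 at -0.32 ± 0.24 and Npas4, a factor specific to neuronal activity, at 0.01 ± 0.16. The list level was lowest in iTBS 1 (4.44) and highest in cTBS 4 (5.27). Under the nuclear RNA covariate, the median was -0.06, with 2 higher and none lower at p under 0.05. With the striatal level as a further covariate it was -0.17, with 2 higher and 2 lower at p under 0.05. With the oligodendrocyte marker level as the covariate instead, the median was -0.33. In that fit 2 of 31 had higher values, and 9 were lower at p under 0.05.

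Late activity-response genes, the effectors that follow, were lower in 19 of 29 cases with a median of -0.10. At p under 0.05 there were 7 lower and 1 higher. Inhba, the activin subunit induced by synaptic activity, was the higher member, at 27.9, 25.4, 25.2, 26.3 and 25.1 CPM in iTBS libraries and at 20.4, 18.8, 16, 20.5 and 25 CPM in cTBS libraries. The groups nearly met at cTBS 5, and the log2 fold change was 0.37 ± 0.10 (edgeR adjusted p = 0.0838). Tiparp, an ADP-ribosyltransferase, was at 15, 16, 17.2, 19.1 and 23.6 CPM in iTBS libraries and at 18.3, 28.4, 22, 30.9 and 27.2 CPM in cTBS libraries (-0.48 ± 0.14). Plk2, a kinase of synaptic scaling, was at -0.27 ± 0.09. Bdnf, the neurotrophin tied to synaptic plasticity, had overlapping groups. It was at 32.9, 26.6, 31.4, 31.5 and 36.3 CPM in iTBS libraries and at 25.7, 31.5, 28.2, 38.7 and 33 CPM in cTBS libraries (0.01 ± 0.13), and its receptor gene Ntrk2 was at 0.06 ± 0.08. The low-level neurotrophin genes Ngfr, the p75 receptor, and Ntf3, neurotrophin 3, were at -1.50 ± 0.40 and -1.07 ± 0.39. Ngfr was at 0.721 to 1.59 CPM in iTBS libraries and 1.12 to 6.56 CPM in cTBS libraries, where cTBS 2 was the highest. After adjustment for nuclear RNA, the late list had a median of 0.01, with 9 higher and 2 lower at p under 0.05.

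NMDA receptor genes, whose channels gate synaptic plasticity, were higher in iTBS cortex in 6 of 7 cases, with 2 at p under 0.05 and a median of 0.17. The level of the list was 5.97, 5.95, 6.03, 6.02 and 6.11 log2 CPM in iTBS libraries and 5.9, 5.86, 5.78, 5.9 and 5.89 log2 CPM in cTBS libraries, without overlap, and 5.82 to 6 in sham libraries. Grin1, the obligatory subunit, was at 377, 363, 405, 379 and 393 CPM in iTBS libraries and at 346, 295, 354, 334 and 313 CPM in cTBS libraries. The groups did not overlap, and the log2 fold change was 0.22 ± 0.10 (edgeR adjusted p = 0.159). Grin2d was at 0.20 ± 0.09, Grin2a at 0.17 ± 0.09 and Grin2b at 0.14 ± 0.12, while Grin3a, an inhibitory subunit, was at -0.20 ± 0.10. Adjusted for the nuclear RNA level, the median was 0.20, with 5 of 7 higher and 3 at p under 0.05, and with the striatal level as a further covariate it was 0.23. AMPA receptor genes had no common direction, with 9 of 20 higher and a median of -0.02 that turned to 0.03 with upper-quartile scaling and to 0.05 under the nuclear RNA covariate. Gria1 was at -0.17 ± 0.08, Gria2 at 0.11 ± 0.07 and Gria3 at 0.13 ± 0.05. Of the metabotropic receptors, Grm8 and Grm7, presynaptic inhibitory receptors, were at 0.20 ± 0.06 and 0.22 ± 0.09.

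Calcium channel genes mostly had higher values in iTBS cortex. Of 15 tested, 12 were higher, with 4 at p under 0.05 and none lower, and a median of 0.07, which was -0.02 without cTBS 3 and 0.12 under the nuclear RNA covariate. Cacna1g, a low-voltage T-type channel, was at 127, 117, 148, 133 and 128 CPM in iTBS libraries and at 97.1, 105, 112, 107 and 107 CPM in cTBS libraries, without overlap (0.31 ± 0.07; edgeR adjusted p = 0.0838). Sham libraries were at 120 to 139 CPM. Cacna1a, the P/Q-type channel of synaptic release, was at 273, 274, 322, 311 and 301 CPM in iTBS libraries and at 236, 219, 251, 269 and 258 CPM in cTBS libraries, again without overlap (0.26 ± 0.07). Cacna1d, an L-type channel, was at 0.36 ± 0.11. Of 38 potassium channel genes, 21 were higher, with 5 higher and 2 lower at p under 0.05 and a median of 0.04 that turned negative without iTBS 1, iTBS 5 or cTBS 3. Kcnk9, a leak channel, was at 0.32 ± 0.08, and Kcnj6, a G-protein-gated channel, at 0.26 ± 0.08, whereas Kcnj4, an inward rectifier, was lower, at 123, 121, 102, 97.1 and 130 CPM in iTBS libraries and at 150, 152, 142, 143 and 139 CPM in cTBS libraries (-0.34 ± 0.08). In the fit that held nuclear RNA constant, 31 of 38 potassium channel genes were higher, 13 of them at p under 0.05. Sodium channel genes had 1 higher and 1 lower at p under 0.05, and a median of -0.09 that was -0.01 under the nuclear RNA covariate.

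Lists of presynaptic and postsynaptic structure genes had small medians, and those of vesicle and calcium/calmodulin genes turned positive under the nuclear RNA covariate. Of 24 postsynaptic scaffold genes 13 were higher, with a median of 0.05 that turned negative without iTBS 1, iTBS 5 or cTBS 2. Under that covariate 21 of the 24 were higher, 9 at p under 0.05, with a median of 0.15. Of 32 synaptic vesicle genes 23 were lower, with a median of -0.06, and Unc13a, the vesicle priming factor, was the 1 gene at p under 0.05. It was at 532, 493, 571, 546 and 550 CPM in iTBS libraries and at 478, 420, 462, 476 and 491 CPM in cTBS libraries, without overlap (0.21 ± 0.07; edgeR adjusted p = 0.0848). The direction of the vesicle list turned under the covariate, with 28 of 32 higher, 5 at p under 0.05, and a median of 0.09. Igsf9b, an adhesion protein of inhibitory synapses, was at 186, 216, 275, 264 and 232 CPM in iTBS libraries and at 135, 146, 160, 164 and 206 CPM in cTBS libraries. Only cTBS 5 reached into the iTBS range, and the log2 fold change was 0.53 ± 0.12. Ptprd, a presynaptic receptor phosphatase, was at 0.26 ± 0.08, and the neurexins Nrxn2 and Nrxn3 were at -0.01 ± 0.10 and 0.08 ± 0.08. Of 20 genes of calcium/calmodulin signalling 17 were lower, 3 at p under 0.05, with a median of -0.10, and Camk2a, the main kinase of the postsynaptic density, was at 0.02 ± 0.11. Here too the direction turned under the covariate, with 14 of 20 higher and a median of 0.05. Of 21 clustered protocadherin genes, Pcdhgb2 (0.32 ± 0.08) and Pcdhb16 (0.19 ± 0.08) were higher and Pcdhgc3 (-0.23 ± 0.07) lower at p under 0.05. Heat shock and chaperone genes had 14 of 28 higher and 1 lower at p under 0.05. A list of 18 plasticity genes, all of them also members of other lists, had 10 higher, with 2 higher and 3 lower at p under 0.05.

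Genes that make and pack GABA mostly had lower values in iTBS cortex. Of 13 genes for GABA synthesis, transport and GABA-B receptors 11 were lower, 6 at p under 0.05, with a median of -0.21. Gad1, the main GABA-making enzyme, was at 324, 366, 314, 291 and 356 CPM in iTBS libraries and at 383, 448, 324, 392 and 367 CPM in cTBS libraries (-0.21 ± 0.09; edgeR adjusted p = 0.131). Slc32a1, the vesicular GABA transporter, was at 55.9, 62.7, 52.2, 45.6 and 62.6 CPM in iTBS libraries and at 76.3, 82.8, 54.5, 63.8 and 70 CPM in cTBS libraries (-0.32 ± 0.12). Both groups overlapped through cTBS 3, and Gad2 was at -0.35 ± 0.16. With upper-quartile scaling 2 of the 13 were lower at p under 0.05. Under the nuclear RNA covariate, the median was -0.12, with 2 higher and none lower at p under 0.05, and with the striatal level added it was -0.04. GABA-A receptor subunits had lower values in 10 of 12 cases, 2 of them at p under 0.05, and under the nuclear RNA covariate 7 of 12 were higher. Gabrg1 was at -0.48 ± 0.15 and Gabra5 was at -0.22 ± 0.10. Cortical interneuron markers were lower in 19 of 24 cases, 4 at p under 0.05, with a median of -0.18 that was -0.07 under the nuclear RNA covariate. Sst, a marker of dendrite-targeting cells, was at -0.21 ± 0.12, and Pvalb, of fast-spiking cells, at 0.04 ± 0.16. Striatal projection neurons also use GABA, and their markers had lower values too. Of 20 markers 19 were lower, with a median of -0.50 and 1 at p under 0.05, Pdyn (-0.53 ± 0.21), and the median was -0.82 under the nuclear RNA covariate. Their level was 4.13 to 5.71 log2 CPM in iTBS libraries and 4.12 to 5.74 log2 CPM in cTBS libraries, and the part of the dissection in the GABA genes was not tested.

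Markers of glia mostly had lower values in iTBS cortex, by counts that depended on the scaling. With upper-quartile scaling those lower at p under 0.05 were 5 for oligodendrocytes, 3 for microglia and 1 for astrocytes. Oligodendrocyte and myelin markers were lower in 18 of 18 cases, 11 at p under 0.05 (6 without cTBS 5), with a median of -0.27. Cnp, a myelin enzyme, was at 221, 193, 186, 148 and 209 CPM in iTBS libraries and at 258, 215, 236, 238 and 249 CPM in cTBS libraries (-0.32 ± 0.11; edgeR adjusted p = 0.0887). The groups overlapped only through iTBS 1 and cTBS 2, and iTBS 4 was the lowest. Mbp, myelin basic protein, was at -0.36 ± 0.17 and Cldn11, the myelin claudin, at -0.29 ± 0.10. Microglia markers were lower in 15 of 16 cases, 8 at p under 0.05, with a median of -0.20. Ctss, a lysosomal protease, was at 36.3, 30, 29.5, 32 and 32.6 CPM in iTBS libraries and at 41.1, 38.5, 42.2, 42.2 and 38.1 CPM in cTBS libraries, without overlap (-0.33 ± 0.09). Trem2, a lipid receptor, was at -0.27 ± 0.10. Astrocyte markers were lower in 15 of 16 cases, 6 at p under 0.05, with Gfap, an intermediate filament, at -0.35 ± 0.09 and the glutamate transporter Slc1a2 at -0.01 ± 0.13. Oligodendrocyte precursor markers were lower in 12 of 14 cases, 2 at p under 0.05, near the share of protein-coding genes. Given the nuclear RNA covariate, all 18 oligodendrocyte markers were still lower, with a median of -0.21, but none had p under 0.05, while microglia and astrocyte medians were -0.07 and -0.07.

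Endothelial and mural cell markers had higher values in iTBS cortex in 14 of 17 cases, with 3 higher and 1 lower at p under 0.05, and a median of 0.15. Abcc9, a channel subunit of pericytes, was at 9.25, 7.37, 10.1, 10.5 and 10.4 CPM in iTBS libraries and at 6.84, 5.05, 6.96, 6.71 and 8.96 CPM in cTBS libraries (0.46 ± 0.14). The median was 0.16 under the nuclear RNA covariate. Flt1, a VEGF receptor, was at 0.27 ± 0.11 and Notch3, of mural cells, at 0.24 ± 0.09. Meningeal markers had a median of -0.01, which was 0.05 with upper-quartile scaling, and none at p under 0.05. Choroid plexus markers had a median of -0.78, none at p under 0.05 and a level of -0.92 to 0.99 log2 CPM in iTBS libraries and -0.55 to 2.27 in cTBS libraries. Without cTBS 4, the cTBS library with the highest level, the choroid plexus median was 0.07, and under the nuclear RNA covariate it was 0.15. Of 5 blood and erythroid markers 3 were higher, with 1 higher and 1 lower at p under 0.05 and a median of 0.23 that was -0.27 without iTBS 5.

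Layer markers of excitatory neurons had small differences. Upper layer and layer 4 markers were higher in 13 of 15 cases with a median of 0.05 (-0.01 without iTBS 5), layer 5 markers were lower in 10 of 15 with a median of -0.08, and layer 6 and subplate markers were lower in 13 of 15 with a median of -0.20. A difference between layers was not tested. At p under 0.05 there were 1 higher and 1 lower in upper layers, 2 higher and 2 lower in layer 5, and 1 higher and 5 lower in layer 6. Crym, a thyroid hormone-binding protein of layer 5, was at 23.4, 22.4, 16, 18.7 and 26.1 CPM in iTBS libraries and at 33.5, 32.6, 26.6, 27 and 31.9 CPM in cTBS libraries, without overlap (-0.50 ± 0.11; edgeR adjusted p = 0.0838). Crym is also expressed in striatum. Calb1, calbindin, was at -0.24 ± 0.08, Crtac1 at -0.29 ± 0.09 and Hs3st4, a heparan sulfate enzyme, at -0.19 ± 0.06, whereas Garnl3 was at 0.25 ± 0.08. Under the nuclear RNA covariate, the upper layer list had a median of 0.24 with 8 higher at p under 0.05, the layer 5 median turned to 0.13 and the layer 6 median was -0.10. Thalamic markers had a level of 4.06 to 4.15 log2 CPM in iTBS libraries and 4.19 to 4.43 in cTBS libraries, without overlap, and a median log2 fold change of -0.15, which was -0.24 under the nuclear RNA covariate. Calb2, calretinin, was the 1 thalamic marker at p under 0.05, at 4.11 to 6.48 CPM in iTBS libraries and 6.98 to 15 CPM in cTBS libraries (-0.86 ± 0.38). It is also a cortical interneuron marker and was counted in both lists.

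Clock and stress-hormone genes were near the background. Of 19 circadian clock genes 8 were higher, with 1 higher and 3 lower at p under 0.05. Cry1, a repressor of the clock, was at 16.2, 14.3, 16.1, 15.9 and 16.7 CPM in iTBS libraries and at 18, 19.3, 19.3, 18.6 and 17.7 CPM in cTBS libraries, without overlap (-0.23 ± 0.06; edgeR adjusted p = 0.0838), and Per3 was at 0.41 ± 0.13. The clock median was -0.06, and 0.09 under the nuclear RNA covariate. Of 19 glucocorticoid-induced genes 7 were higher, with 1 higher and 1 lower at p under 0.05 and a median of -0.07 that was -0.03 under the nuclear RNA covariate. Klf15, a target of the glucocorticoid receptor, was at 14.1, 14.3, 16.1, 16.7 and 16.5 CPM in iTBS libraries and at 17.1, 19.1, 18.6, 21.3 and 17.9 CPM in cTBS libraries, without overlap (-0.28 ± 0.08). Zbtb16 was at 0.34 ± 0.15 and Fkbp5, an immunophilin that tunes that receptor, at -0.20 ± 0.11.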

How the data were processed

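Total RNA from cortex of 15 mice, 5 per group, was sequenced after ribosomal RNA depletion with a stranded kit, per the labels' protocols. The deposited values are raw counts per gene, whole numbers that the authors made; fastp, STAR, DESeq2 and the build GRCm39 (mm39) are named, per the submitters' processing notes. For the counting program, its strand setting and the annotation release, the sources used here give nothing. The authors also deposited variance-stabilized values, close to log2 in scale, which served in 1 alternative; how they were set is not stated. Gene names and classes came from GENCODE M21 by Ensembl identifier, which named 52125 of 56748 identifiers holding 97.8% of counts. Counts were tested with edgeR 4.0.16 in R 4.3.3 (TMM scaling, filterByExpr, quasi-likelihood F-test, contrast iTBS minus cTBS in a model of all 15 libraries, Benjamini-Hochberg adjustment over 22998 genes, threshold 0.05). CPM use the TMM-scaled library sizes, and a list's level is the mean log2 CPM of its members with a prior count of 2. The biological coefficient of variation was 20.1%. The test was checked on simulated counts whose genes varied independently. Those counts lack the variation that genes share here, so the check does not bear on calls that follow from it. DESeq2 1.42.0, limma 3.58.1, other scalings, filters, covariates and the leaving out of each library were alternatives. Named genes were the 20 of smallest p at a mean of at least 1 CPM, the 3 of smallest p in each list and a fixed set of plasticity genes. Malat1, Gapdh and other members named beside them were picked once values were known. The members and the 44 lists were chosen with earlier results of these data known, and 864 of 872 listed symbols were matched. The labels do not say that replicate numbers pair the samples, and the main fit did not use them as pairs. Library totals ran from 15385070 to 47807723 counts, and p-values measure the spread between these animals. Some genes that the rule names are not reported here.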

Additional observations from a re-analysis of the deposited data

Results flagged for a closer look

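Of 412 groups of 5 values tried (named genes, list levels and library measures in iTBS and in cTBS libraries), 27 had a library standing apart from the other 4 of its group by Dixon's criterion, a gap of more than 0.71 of the range, where chance alone at 1 in 20 would give 20.6. The library iTBS 1 stood apart in 6, iTBS 2 in 2, iTBS 3 in 1 and iTBS 5 in 3, while cTBS 4 did in 6, cTBS 5 in 5, cTBS 2 in 2 and cTBS 3 in 2. No explanation was tested for any of them.

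The library iTBS 1 was above the other iTBS libraries in Ctsz (19.6 CPM against 18.2 to 18.6), 2410015M20Rik (17.4 against 13 to 13.8), the proteasome genes Psmb3 (35.3 against 28.3 to 29.3) and Psmb1 (69.2 against 53.1 to 57.2), and Gabra5 (46.4 against 34.6 to 38), and below them in Npas4 (20.7 against 34.8 to 38.6). In iTBS 2, Pcdhgc3 was at 15.6 CPM (others 17.7 to 18.3) and the upper layer level at 5.81 log2 CPM. Ntf3 was at 0 in iTBS 3 (others 0.353 to 0.415 CPM). In iTBS 5, Grin2b was at 1870 CPM (others 1360 to 1490), the late activity-response level at 5.44 and the synaptic adhesion level at 7.32 log2 CPM.

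In cTBS 5, Acp1 was at 35.8 CPM (others 40.3 to 41.9), Sdhb at 60.5 (others 69.9 to 72.8), Cdc42 at 213 (others 248 to 254), Notch3 at 15 (others 10.7 to 11.9) and Homer3 at 4.02 (others 2.47 to 2.86). In cTBS 4, Chmp2a was at 45.1 CPM (others 38.2 to 40), and the choroid plexus genes Kl at 15.5 (others 3.31 to 6.3) and Folr1 at 2.07 (others 0.14 to 0.34). The same library had an actin list level of 8.05, a meningeal level of 3.26 and an upper layer level of 6.07 log2 CPM. In cTBS 2, Calb2 was at 15 CPM (others 6.98 to 8.09) and Camk2a at 2170 (others 2850 to 3020). In cTBS 3, the neurotrophin level was 4.50 and the sodium channel level 7.31 log2 CPM, both below the other cTBS libraries.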

How the results depend on the processing

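The count of genes at adjusted p under 0.05 was 0 with edgeR and in 14 of 17 other settings that did not leave out a single library. DESeq2 called 2618 genes, limma-voom with quality weights 6853, and leaving out a library gave 0 to 4474 calls (4474 without iTBS 1, 3380 without cTBS 5, 3637 without sham 4). The replicate block gave 5 calls. Same-numbered iTBS and cTBS libraries had correlations of 0.192, 0.364, 0.054, -0.478 and -0.45, which cannot settle whether the numbers pair the samples. The count at unadjusted p under 0.05 was 7047, and 1780 under the nuclear RNA covariate, 1513 under nuclear RNA and striatal covariates, 3108 with the oligodendrocyte level and 3505 without iTBS 3 and cTBS 4 together, where 50.1% of these genes were higher against 65.3%. The difference in genes detected was 638.8, and 2073 when libraries were thinned to the smallest total (exact permutation p = 0.0317). The 20 genes of smallest p kept their direction in every setting that held them (18 of them in the fit of protein-coding genes alone). Among named genes, log2 fold changes turned in sign under the nuclear RNA covariate for Scn9a (-0.0093), Napa (0.0018), Lrrtm4 (-0.077), mt-Nd6 (-0.10), Srsf11 (-0.014), Slc13a4 (0.037), Col6a1 (-0.22), Folr1 (0.15), Kdm5d (-0.018), Eif2s3y (-0.16), Nptx2 (0.11) and Dlg4 (0.082). Under nuclear RNA and striatal covariates together they turned for Grm5 (0.043), Scn2b (0.020), Lrrtm4 (-0.053), mt-Nd6 (-0.050), Srsf11 (-0.028), Canx (0.023), Slc13a4 (0.028), Col6a1 (-0.17), Kl (0.18), Folr1 (0.52), Clic6 (0.074), Kdm5d (-0.024), Eif2s3y (-0.18) and Dlg4 (0.079), and under the oligodendrocyte covariate for Grm5 (0.015) and Hspa1b (-0.021). Leaving out 1 library gave -1.76 to 0.066 for Folr1, positive without cTBS 4, and -0.030 to 0.096 for Ntrk2, negative without iTBS 1 or iTBS 5. Without iTBS 3 and cTBS 4 together Folr1 was at 0.18. That joint removal and the fit of protein-coding genes alone were chosen after seeing the data, and the cause was not tested. Loci under 1 CPM, such as the miRNA loci, rest on few counts.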
